A study of Mus musculus with 2 samples.

Results

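The cadherin family genes described here are the classical cadherins and the nonclustered protocadherins of the mouse, together with their largest relatives. They were taken as every protein-coding gene of the GENCODE M21 annotation whose symbol is Cdh, Pcdh, Celsr, Fat or Dchs followed by a number (with Pcdh11x, and without Cdh5). The rule gave 43 genes out of 22028 protein-coding and 55536 annotated genes. Its name is narrower than its content. Of the 43 genes, 17 are type I or type II classical cadherins, 12 are nonclustered protocadherins, and 14 are neither: 3 Celsr genes, 6 Fat and Dchs genes and 5 cadherins that lack the classical cytoplasmic tail or belong to other branches (Cdh13, Cdh16, Cdh17, Cdh23 and Cdh26).

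Polyadenylated RNA of embryonic mouse midbrain was sequenced. There was 1 group, of strain B6NCrl, healthy embryos at 12.5 days of development, with males and females pooled. Replicate 1 was a pool of 120 embryos and replicate 2 a pool of 88, each a separate biological sample, and each library started from 10 ng of RNA, was primed with oligo-dT and cut by Nextera tagmentation, and carried ERCC spike-in RNAs. No treatment, genotype or stage was contrasted, so the data give levels and their spread between the pools, and with 1 library a pool no p-value was computed.

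The libraries held 30274342 expected counts (replicate 1) and 38421860 (replicate 2). Rows other than annotated genes, such as the spike-ins, took 4.02% and 3.38% of them. Marker genes of the labelled tissue were present: Otx2, a forebrain and midbrain transcription factor, stood at 145 and 141 TPM (a level corrected for transcript length and library depth) in replicates 1 and 2, and the midbrain factors En1 and En2 at 5.60 and 8.06 TPM and at 1.14 and 1.64 TPM. Regional markers differed between the pools. The 3 thalamus and pretectum markers summed to 483 TPM in replicate 1 and 284 TPM in replicate 2, and the 4 floor plate markers to 35.2 and 67.3 TPM. Non-neural tissue was present in both. The haemoglobin genes Hbb-y and Hba-a2, markers of blood, summed to 11026 TPM in replicate 1 and 12893 TPM in replicate 2, and the 5 mesenchyme markers, all above 1 TPM, to 705 and 1009 TPM. In such bulk samples fewer cells of a type and less RNA per cell cannot be told apart.

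Cadherins are calcium-dependent adhesion proteins whose extracellular repeats bind the same or a related cadherin on the next cell. Classical cadherins of types I and II bind beta-catenin and p120-catenin through their tails and so reach alpha-catenin and actin; in the neural tube they hold the neuroepithelium together and sort neurons into nuclei and layers. Delta protocadherins lack the catenin-binding tail and instead bind partners such as the WAVE actin regulators, while Celsr proteins act with Frizzled and Vangl in planar cell polarity and the giant Fat and Dchs cadherins bind each other across cell borders and feed into polarity and Hippo signalling.

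The sequences that bear on the transcript results below are 2 coding segments that long coding transcripts of Pcdh19 and Pcdh8 include or skip, and they are printed 5′ to 3′ on the gene's strand from the GENCODE M21 transcript sequences (assembly GRCm38), with the alternative segment in capitals and 4 flanking coding bases on each side in lower case. Pcdh19 is transcribed from the minus strand of chromosome X, and its segment is a whole coding exon of 141 bases, 47 codons, at chrX:133682092-133682232. Pcdh19-202 includes it and Pcdh19-203 skips it. Pcdh8 lies on the minus strand of chromosome 14, and its segment is 291 bases, 97 codons, at chr14:79768497-79768787. Pcdh8-201 includes it and Pcdh8-204 removes it.
Pcdh19 alternative exon: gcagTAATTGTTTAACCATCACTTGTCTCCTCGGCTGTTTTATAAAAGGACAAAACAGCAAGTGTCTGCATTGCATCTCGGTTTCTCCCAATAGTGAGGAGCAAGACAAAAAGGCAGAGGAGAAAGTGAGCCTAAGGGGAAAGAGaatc
Pcdh8 alternative segment: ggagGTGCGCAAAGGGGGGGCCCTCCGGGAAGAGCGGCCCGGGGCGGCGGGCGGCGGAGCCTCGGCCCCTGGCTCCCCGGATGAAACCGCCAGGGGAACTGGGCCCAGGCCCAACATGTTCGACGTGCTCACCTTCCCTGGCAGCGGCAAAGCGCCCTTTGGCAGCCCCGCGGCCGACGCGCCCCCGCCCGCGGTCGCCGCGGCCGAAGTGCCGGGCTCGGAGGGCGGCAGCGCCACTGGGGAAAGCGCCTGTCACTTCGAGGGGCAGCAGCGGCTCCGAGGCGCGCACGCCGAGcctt

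Promoter windows of 300 bases, from 250 before to 50 after a RefSeq start (GRCm38.p6), were on hand for 29 of the 43 genes, and in 21 of these the start lay within 500 bases of that of the GENCODE transcript leading in replicate 1. Pcdh15, Pcdh19 and Cdh23 fell outside that limit, at 722414, 100982 and 9233 bases. Transcripts not annotated as protein-coding led them in replicate 1 (Pcdh15-230, Pcdh19-204 and Cdh23-206). Fat1, Fat3, Cdh10, Cdh12 and Cdh18 also fell outside, though protein-coding transcripts led them in replicate 1. The windows are given because the genes differ widely in RNA level and their promoters in CG content. The 15 of the 21 genes that were detected (at least 1 TPM in both libraries) held a median of 21 CG dinucleotides per window, with a range of 4 to 40, and the 6 that were not detected held a median of 7.5, with a range of 4 to 27. The median over all 32851 windows of the table was 7. The 4 windows printed here have CG in capitals. They are Celsr2 (chr3:108415530-108415829, minus strand, 40 CG) and Pcdh18 (chr3:49757267-49757566, minus strand, 23 CG), which were both near 60 TPM, and Dchs2 (chr3:83127277-83127576, plus strand, 27 CG) and Cdh26 (chr2:178430265-178430564, plus strand, 4 CG), which were both below 1 TPM.
Celsr2 promoter window: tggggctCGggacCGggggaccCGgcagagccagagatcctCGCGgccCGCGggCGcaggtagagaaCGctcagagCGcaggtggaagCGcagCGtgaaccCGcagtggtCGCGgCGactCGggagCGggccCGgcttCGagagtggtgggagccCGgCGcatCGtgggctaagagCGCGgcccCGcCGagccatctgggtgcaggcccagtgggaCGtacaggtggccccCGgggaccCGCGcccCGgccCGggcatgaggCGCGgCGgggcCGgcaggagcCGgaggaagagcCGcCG
Pcdh18 promoter window: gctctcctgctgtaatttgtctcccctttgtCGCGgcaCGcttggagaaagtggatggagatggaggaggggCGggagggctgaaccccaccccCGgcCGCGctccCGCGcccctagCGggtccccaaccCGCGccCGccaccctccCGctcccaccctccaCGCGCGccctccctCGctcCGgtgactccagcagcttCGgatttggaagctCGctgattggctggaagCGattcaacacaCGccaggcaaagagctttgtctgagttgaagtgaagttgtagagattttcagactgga
Dchs2 promoter window: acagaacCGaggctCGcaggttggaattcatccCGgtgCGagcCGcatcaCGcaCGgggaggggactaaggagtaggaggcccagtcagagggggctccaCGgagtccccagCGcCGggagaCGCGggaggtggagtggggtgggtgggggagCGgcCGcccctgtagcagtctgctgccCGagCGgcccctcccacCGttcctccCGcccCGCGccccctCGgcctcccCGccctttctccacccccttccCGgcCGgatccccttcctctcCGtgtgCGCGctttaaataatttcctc
Cdh26 promoter window: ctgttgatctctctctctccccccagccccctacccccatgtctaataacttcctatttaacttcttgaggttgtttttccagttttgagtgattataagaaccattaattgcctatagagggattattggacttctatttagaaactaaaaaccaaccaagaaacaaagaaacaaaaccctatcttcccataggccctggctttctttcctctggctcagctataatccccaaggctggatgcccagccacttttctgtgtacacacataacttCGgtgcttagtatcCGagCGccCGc
Dchs2 shows that a CG-rich window was also found at a gene with almost no RNA. The E-box CAGGTG was searched on both strands of the same windows and occurred in 3 of the 21 genes, Celsr2, Pcdh7 and Cdh7, against 20.2% of all windows of the table; Celsr2 held 2 copies.

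In all, 31 of the 43 genes were detected, or 72.1%, against 59.4% of all protein-coding genes. Their levels summed to 679 TPM in replicate 1 and 671 TPM in replicate 2 (675 ± 5.81, SD, n = 2). Cdh2 alone gave 25.7% ± 0.588 (SD, n = 2) of that sum, and the 5 highest genes gave 60.4%. The median level of the detected members was 9.38 TPM, against 22.2 TPM for all detected protein-coding genes. The order of the levels was firm only in places, since 22 of the 30 neighbouring pairs among the detected genes had overlapping ranges over the 2 libraries.

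**Figure D1:**
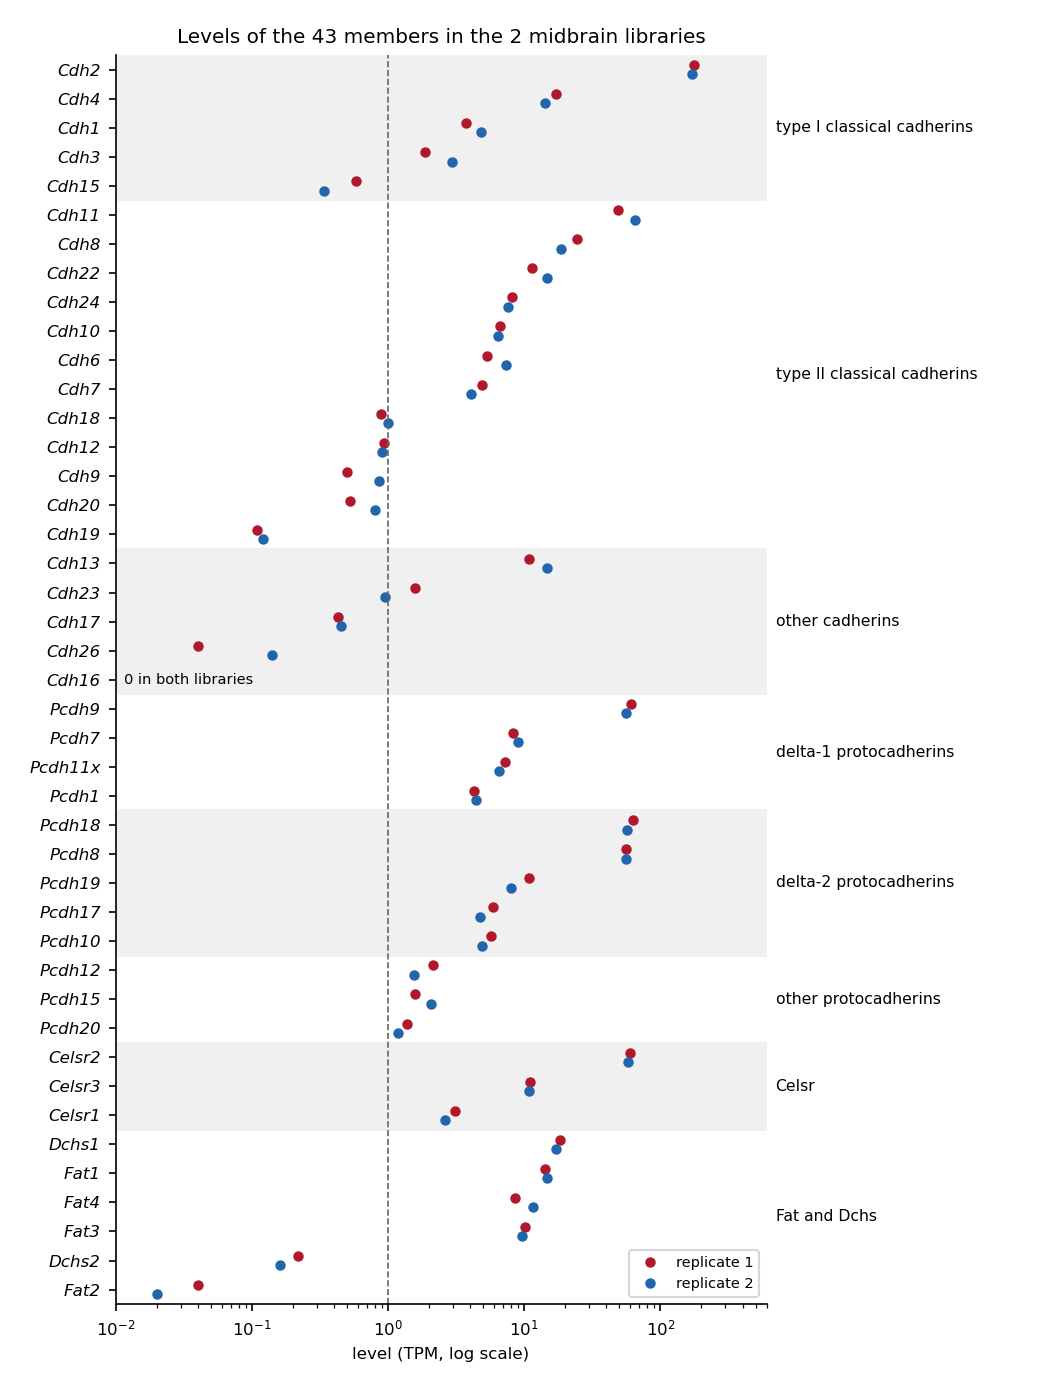
Level of each of the 43 genes in TPM on a log axis, with replicate 1 (red) above replicate 2 (blue) and genes grouped by class. The dashed line marks the limit of 1 TPM for detection. Cdh2 stands alone above 100 TPM, a group of 5 genes follows near 60 TPM, and Cdh16 is at 0 in both libraries.

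Among type I cadherins, Cdh2 (N-cadherin, the adherens junction cadherin of the neuroepithelium) stood at 177 TPM in replicate 1 and 170 TPM in replicate 2, from 13313 and 15849 counts. It was the highest of the 43 genes in both libraries, and its range did not meet that of any other. Cdh4 (R-cadherin, which can pair with N-cadherin) was at 17.1 and 14.3 TPM. Cdh1 (E-cadherin, of epithelia) was at 3.75 and 4.82 TPM and Cdh3 (P-cadherin, also epithelial) at 1.86 and 2.95 TPM. Cdh15 (M-cadherin, of muscle precursors) was not detected, at 0.58 and 0.34 TPM. The class summed to 201 and 192 TPM, so that nearly all of it was Cdh2. The epithelial markers Epcam, Krt8, Krt18 and Cldn6 were all above 1 TPM and summed to 14.3 TPM in replicate 1 and 16.4 TPM in replicate 2; the part of such cells in the Cdh1 and Cdh3 levels was not tested.

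Type II cadherins, whose combinations mark brain nuclei and neuron pools, were detected for 7 of 12 genes and summed to 113 TPM in replicate 1 and 128 TPM in replicate 2. Cdh11 (chr8:102632095-102785642, minus strand), known from mesenchyme and bone as well as brain, led them at 49.1 and 65.0 TPM. Cdh8 (chr8:99024471-99416471, minus strand), which marks regions and synapses of the brain, followed at 24.6 and 18.7 TPM. These genes did not overlap each other, and they moved in opposite directions between the pools. Below them, Cdh22 stood at 11.3 and 14.7 TPM, Cdh24 at 8.15 and 7.60 TPM, and Cdh10 at 6.63 and 6.47 TPM. Cdh6, expressed in parts of the neural tube and in kidney, was at 5.33 and 7.35 TPM, and Cdh7 at 4.91 and 4.10 TPM. The 5 genes that were not detected ran from 0.11 TPM (Cdh19, a cadherin of Schwann cell precursors) up to 1.00 TPM: Cdh12 and Cdh18 lay at or just under the limit, and Cdh9 and Cdh20 between 0.50 and 0.86 TPM.

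The other cadherins were almost silent except for Cdh13. Cdh13 (T-cadherin, which is held by a lipid anchor and has no cytoplasmic tail) stood at 10.8 and 14.7 TPM. Cdh23, which with Pcdh15 forms the tip links of inner-ear hair cells, was at 1.58 TPM in replicate 1 and 0.95 TPM in replicate 2 and so missed the limit in replicate 2. Cdh17, a liver and intestine cadherin, lay at 0.43 and 0.45 TPM. Cdh26 had 2 and 7 counts. The kidney cadherin Cdh16 had 0 counts in both libraries, which allows up to 0.162 TPM in replicate 1 and 0.128 TPM in replicate 2 (3 counts a library; counting error only).

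All 4 delta-1 protocadherins and all 5 delta-2 protocadherins were detected. In the delta-1 class, Pcdh9 (chr14:93013410-93890679, minus strand) stood at 61.0 and 56.2 TPM over all its transcripts, several times its relatives. Pcdh7 was at 8.26 and 9.06 TPM, the X-linked Pcdh11x at 7.22 and 6.52 TPM, and Pcdh1 at 4.29 and 4.44 TPM. In the delta-2 class, which carries the WAVE-binding motif in most members, Pcdh18 (chr3:49743296-49757325, minus strand) was at 63.2 and 56.8 TPM and Pcdh8 (chr14:79766775-79771312, minus strand), which regulates cadherin removal from the surface in neurons, at 56.2 and 55.4 TPM. Pcdh18, Pcdh9, Celsr2, Cdh11 and Pcdh8 formed a run of 5 genes next below Cdh2, and each pair of neighbours in that run overlapped. Pcdh19, X-linked and the gene of an epilepsy of girls in humans, stood at 10.8 and 8.01 TPM. Pcdh17 was at 5.90 and 4.76 TPM and Pcdh10 at 5.67 and 4.88 TPM. The delta-2 genes summed to 142 and 130 TPM and the delta-1 genes to 80.8 and 76.2 TPM.

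The remaining protocadherins were low. Pcdh12, an endothelial protocadherin, was at 2.15 and 1.55 TPM; the endothelial markers Pecam1, Kdr, Cldn5 and Tek were all present and summed to 69.8 and 76.8 TPM. Pcdh15, the tip-link partner of Cdh23, was at 1.58 and 2.06 TPM, and Pcdh20 at 1.39 and 1.18 TPM.

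Among the polarity cadherins, Celsr2 (chr3:108390851-108415552, minus strand), which acts in cilium orientation and forebrain wiring, was the main Celsr gene at 59.7 and 57.5 TPM. Celsr3, needed for axon tracts, stood at 11.0 and 10.8 TPM and Celsr1, the epithelial polarity member, at 3.11 and 2.63 TPM. The ranges of the 3 genes were well apart. Of the Fat and Dchs genes, the ligand Dchs1 was at 18.2 and 17.2 TPM and its receptor Fat4 at 8.55 and 11.6 TPM. Fat1 was at 14.1 and 14.8 TPM and Fat3, which shapes neuron processes in the retina, at 10.1 and 9.66 TPM. Dchs2 and Fat2 (a cadherin of cerebellar granule cells) were not detected, between 0.02 and 0.22 TPM.

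**Figure D2:**
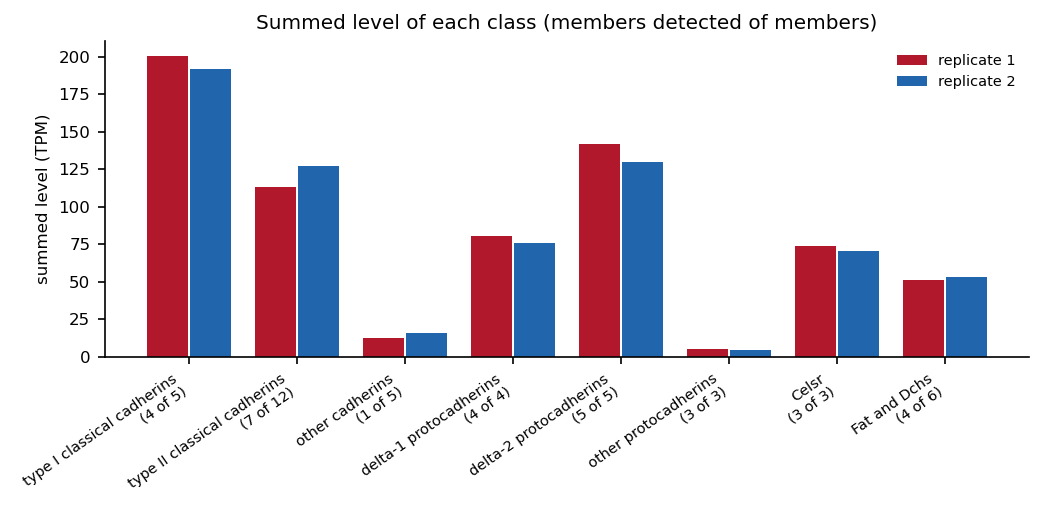
Summed level in TPM of each of the 8 classes, with replicate 1 (red) left of replicate 2 (blue) and the number of detected genes of each class under its name. Type I cadherins reach 201 and 192 TPM, delta-2 protocadherins 142 and 130 TPM, and the other protocadherins 5.12 and 4.79 TPM.

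The genes of listed partners of these proteins were present with few exceptions. Of 12 catenins and junction anchors 11 were detected, from Ctnnb1 (beta-catenin), the highest at 667 and 664 TPM, down to Ctnna3, the heart and testis alpha-catenin, the lowest at 0.05 and 0.06 TPM. All 12 planar cell polarity partners of Celsr were detected, with Fzd3 highest at 50.1 ± 0.19 TPM (SD, n = 2) and Prickle3 lowest at 2.00 and 2.12 TPM. Of 15 Fat and Dchs partners and Hippo genes 14 were detected, with Tead2 highest at 181 and 195 TPM and Tead4 lowest at 0.71 and 1.16 TPM. The WAVE complex list was detected in all 9 genes, with Brk1 highest at 140 and 153 TPM and Wasf3 lowest at 7.32 and 9.43 TPM. Of 7 genes of proteases and protease subunits that mature or shed cadherins 6 were detected, with Ncstn (nicastrin, a noncatalytic subunit of gamma-secretase) highest at 93.8 and 100 TPM and Pcsk6 lowest at 0.75 and 0.54 TPM.

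The gene levels hide which transcripts were counted. The deposited transcript tables gave the same leading transcript in both libraries for 29 of the 31 detected genes (the exceptions were Pcdh12 and Pcdh15), and a protein-coding one in both for 28. A median of 9.57% of a detected member's TPM lay on transcripts not annotated as protein-coding (retained introns, nonsense-mediated decay targets and processed transcripts), against 8.97% for all detected protein-coding genes. In counts that median was 2.02%, against 3.87%. Since TPM is per length, a short transcript with few counts can hold a large share of a gene's TPM. On protein-coding transcripts alone 29 genes were detected, without Pcdh12 and Pcdh15, and the sum was 593 TPM in replicate 1 and 589 TPM in replicate 2.

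At Pcdh19 the shares of TPM and of counts were far apart. Pcdh19-204, a nonsense-mediated decay transcript of 335 bases, held 55.9% of the gene's TPM in replicate 1 and 44.7% in replicate 2, but 3.13% and 2.20% of its counts (26.5 and 19.9). Its 2 exons, chrX:133582880-133583104 and chrX:133587902-133588011, both lie inside the last exon of the coding transcript Pcdh19-202 (chrX:133582860-133588577). On protein-coding transcripts Pcdh19 stood at 4.75 and 4.04 TPM, which moved it from place 16 to place 22 in the order. The coding transcripts divided evenly: Pcdh19-202, with the 141-base exon printed above, held 2.39 and 2.04 TPM, and Pcdh19-203, without it, 2.32 and 2.00 TPM.

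Celsr2 had 38.2% and 36.8% of its TPM but 3.7% and 3.4% of its counts on transcripts not annotated as protein-coding, and its level on protein-coding transcripts was 36.9 and 36.3 TPM, place 6 in place of 4. Fat1 had 33.2% and 31.5% of its TPM but 2.1% and 1.9% of its counts on such transcripts, and most of that TPM lay on the nonsense-mediated decay transcript Fat1-202, at 23.7% and 26.7% of TPM. Cdh13 was different, with 50.9% and 55.0% of TPM and also 26.1% and 23.8% of counts on retained introns and processed transcripts. Its coding transcript Cdh13-201 stood at 5.32 and 6.62 TPM.

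A protein-coding label did not always mean a complete reading frame. Transcripts with at least 80% of the gene's longest annotated coding length held a median of 87.0% of TPM and 95.3% of counts over the 31 detected genes. They held less than 50% of the counts, as a mean of the libraries, in 3 genes: Pcdh9, Cdh7 and Pcdh15. Pcdh9-205, with 2620 of 3711 coding bases, held 63.2% and 65.9% of the TPM of Pcdh9, against 19.5% and 20.3% for Pcdh9-204 with 3609. On near-complete coding transcripts Pcdh9 stood at 14.4 and 13.7 TPM, place 9 in place of 3. On such transcripts Pcdh7 was at 7.32 and 7.04 TPM and Celsr2 at 27.7 and 26.3 TPM. Cdh7-208, with 228 coding bases of 2355, held 48.1% and 55.8% of the TPM of Cdh7, and the full-length Cdh7-202 stood at 0.36 and 0.25 TPM. At Fat3, Fat3-204 with 1211 of 13653 coding bases held 38.5% and 38.8% of TPM beside the full-length Fat3-205 at 54.1% and 49.5%. Fat3-204 (chr9:15910189-15922756) lies at the downstream end of this minus-strand gene. The libraries were primed with oligo-dT, and read coverage along the genes was not examined. The part of uneven coverage in these estimated shares was therefore not tested.

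Several genes had more than 1 long coding transcript, and the estimated shares of some were unlike in the libraries. Cdh2-202 held 58.0% and 62.2% of Cdh2, and Cdh2-201, with 2718 coding bases in place of 2547, held 34.4% and 29.4%. The deposited credibility ranges of Cdh2-201 (55.6 to 62.6 TPM and 45.8 to 51.4 TPM) did not overlap, and those of Cdh2-202 did. These ranges are of a transcript's TPM and not of its share, so they do not test a change of share. Those of Cdh1-201, which held 100% of Cdh1 in both libraries, did not overlap either. Pcdh8-201, with the 291-base segment printed above, held 53.5% and 51.7% of Pcdh8 and Pcdh8-204, without it, 41.7% and 43.7%, with overlapping ranges. Cdh8 was spread over 4 near-complete transcripts, of which Cdh8-204 led with 41.9% and 38.7%. Pcdh11x was divided less alike: Pcdh11x-203 held 40.3% in replicate 1 and 55.9% in replicate 2, with overlapping ranges, and Pcdh11x-202 held 29.1% and 15.8%, with ranges of 1.61 to 2.29 TPM and 0.75 to 1.17 TPM that did not overlap. At Fat1, Fat1-205 held 49.8% and 40.6% and Fat1-203 held 5.7% and 12.4%, and the ranges of both overlapped.

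**Figure D3:**
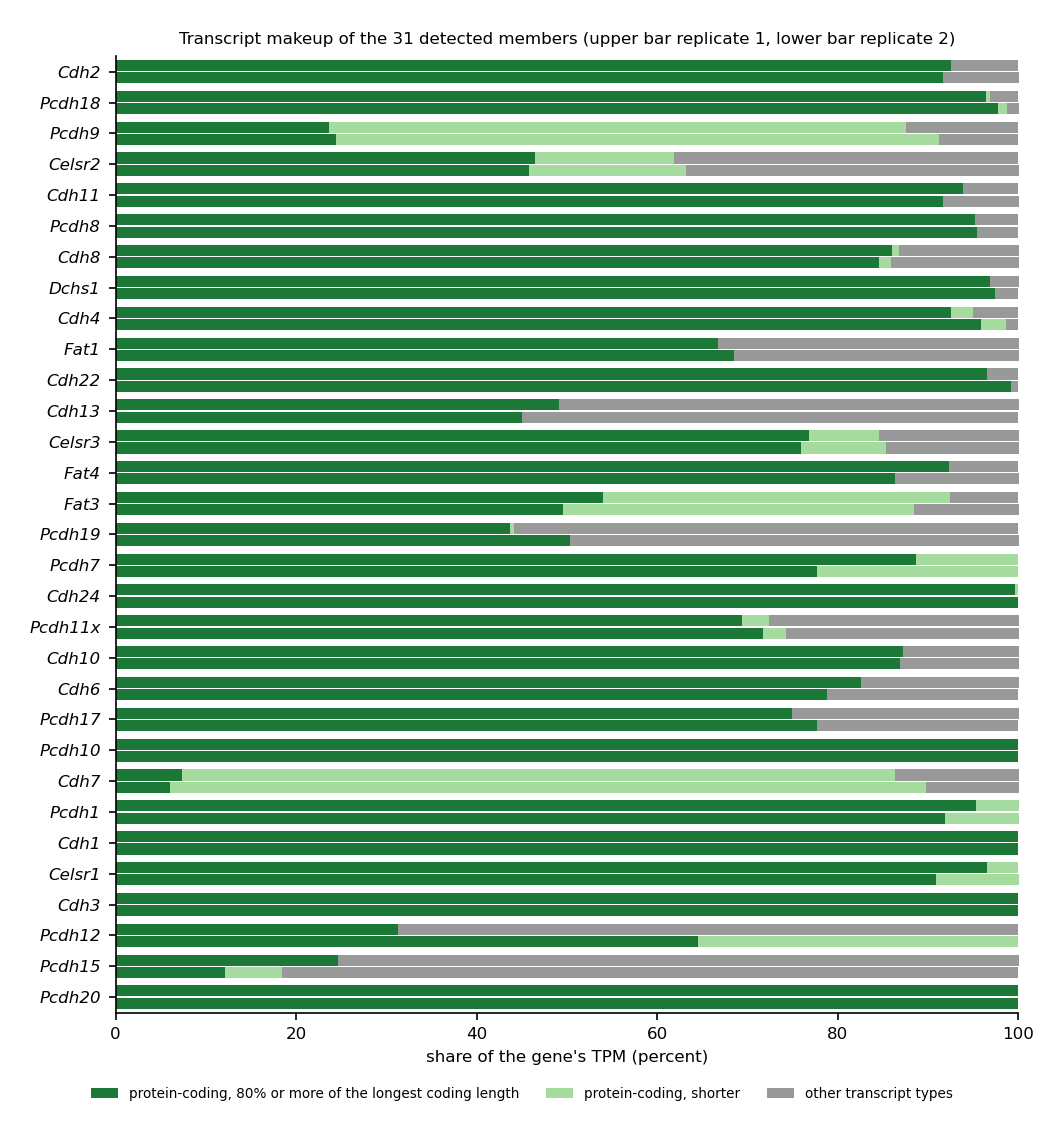
Share of each detected gene's TPM, in percent, on protein-coding transcripts with at least 80% of the longest coding length (dark green), on shorter protein-coding transcripts (light green) and on other transcript types (grey), with the upper bar of each pair for replicate 1 and the lower for replicate 2. Cdh7 and Pcdh9 are mostly light green, while Pcdh19, Cdh13 and Pcdh15 have about equal or larger grey parts.

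The annotation release also set some levels. The tables made with the older GENCODE M4 gave a sum of 734 TPM as the mean of the libraries, and the log2 ratio of the M21 over the M4 level had a median of -0.07 over 42 genes and of -0.07 over detected protein-coding genes. Of the 42 genes 31 lay within 0.1 of that median. Cdh6 was farthest below it, at 5.33 and 7.35 TPM in M21 against 9.49 and 13.2 TPM in M4, with a mean transcript length in replicate 1 of 7056 bases against 2632 and 1.58 times the counts. Cdh11 was at 49.1 and 65.0 TPM in M21 against 63.8 and 82.4 TPM in M4, and in the M4 tables it was the gene next below Cdh2 in replicate 2. Fat3 went the other way, at a mean of 9.86 TPM in M21 against 6.64 TPM in M4.

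The pools were compared on expected counts, scaled by the trimmed mean of M-values (TMM), for 41 genes, those that reached 10 counts in either library. A ratio counted as called when it reached 2-fold and its exact 95% counting interval left out equality. Only Cdh23 was called, with 96 counts in replicate 1 and 60 in replicate 2 and a log2 ratio of 1.04 (0.56 to 1.53). That is 2.44% of the 41 genes, against 2.74% of protein-coding genes and 4.23% of all genes compared. Of its counts 64.1% and 69.3% lay on the coding transcript Cdh23-204. Of its TPM, however, 78.1% and 83.2% lay on transcripts not annotated as protein-coding, led by Cdh23-206. Its level on protein-coding transcripts was 0.34 TPM in replicate 1 and 0.16 TPM in replicate 2. The other 40 genes stayed uncalled, and 35 of the 41 differed by less than 1.5-fold.

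Smaller differences beyond counting error were frequent. The interval lay above equality for 17 genes and below it for 9, or 41.5% and 22.0%, against 17.6% and 18.9% of protein-coding genes, and it held equality for 15. The median log2 ratio was 0.10, against -0.01 for all genes compared. The median size of the log2 ratio, whatever its sign, was 0.24 over the 41 genes and 0.11 over protein-coding genes. Among genes with at least 100 counts in both libraries, a limit added after seeing the data, it was 0.20 over 31 members and 0.09 over 11979 protein-coding genes. Scaled on the spike-ins, the median of all genes moved to -0.28, and 2 members then lay above equality and 22 below. Each direction here is therefore relative to the rest of the transcriptome. Shares of protein-coding genes above and below were not computed with spike-in scaling. The spike-in counts of members, here and in the next paragraphs, therefore have no such share beside them.

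Higher in replicate 1 were Cdh8, with 1381 counts in replicate 1 and 1314 in the deeper replicate 2 (log2 ratio 0.44, interval 0.33 to 0.55), Pcdh11x at 0.33, Celsr1 at 0.30, Pcdh17 at 0.30, Pcdh19 at 0.27, Cdh7 and Cdh4 at 0.24, Pcdh10 at 0.20, Fat3 at 0.17 and Pcdh18 at 0.16. Cdh2, Dchs1, Pcdh9 and Celsr2 lay between 0.09 and 0.11, and the sparse Cdh12 and Cdh15 at 0.59 and 0.81. Of the 5 delta-2 protocadherins 4 had intervals above equality and 0 below, while with spike-in scaling 0 lay above and 2 below. Type II cadherins were split, 3 above and 4 below, and with spike-in scaling 1 above and 6 below.

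Lower in replicate 1 were Cdh11, with 4891 counts in replicate 1 and 7980 in replicate 2 (log2 ratio -0.34, interval -0.39 to -0.29), Cdh22 at -0.36, Cdh6 at -0.39, Fat4 at -0.33, Cdh1 at -0.34, Cdh13 at -0.25, Fat1 at -0.07, and the sparser Cdh3 at -0.64 and Cdh9 at -0.75. Fewer counts made the last values less certain, with an interval of -1.40 to -0.12 for Cdh9. Cdh9, with 32 counts in replicate 1 and 69 in replicate 2, was the only member called 2-fold with spike-in scaling, at -1.01, where Cdh23 was not.

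Tissue markers also differed between the pools, in both directions. All 5 mesenchyme markers had log2 ratios below 0, with a median of -0.37 and 4 of 5 intervals below equality, and none was at 0 counts. The surface epithelium list had a median of -0.43, with Krt8 and Cldn6 below and Epcam above equality, and the floor plate list a median of -0.96 with 3 of 4 below. The floor plate genes Foxa2 and Corin were called 2-fold, at -1.05 and -1.57. The thalamus and pretectum list had a median of 0.88 with 3 of 3 above, led by Olig3 with 1841 counts in replicate 1 and 405 in replicate 2. Olig3 was also called 2-fold, at 2.55. The midbrain list had a median of -0.38, with En1, En2 and Pax7 below and Otx2 above equality, and the endothelial list a median of -0.21 with 3 of 4 below. Both blood genes lay below, with a median of -0.21. Of the neural crest list 1 of 3 genes compared lay below, and that gene, Sox10, was called 2-fold. The skeletal muscle list had 1 of 2 below (Pax7, which the midbrain list also holds), the hindbrain list 1 above (Barhl1) and 1 below (Atoh1, called 2-fold), and the microglia list 0 on either side. The neuron list had a median of 0.09 with 3 of 4 above equality and 0 below. The progenitor list had a median of 0.05 with 2 of 4 above and 1 below. The part of the dissection or of these cell types in the cadherin ratios was not tested. None of the genes of the 5 partner lists was called, against 2.74% of protein-coding genes compared. Lists of 7 to 15 genes are too short to tell 0 from that share. The medians of these lists lay between 0.00 and 0.02, with intervals on both sides of equality in each. Above and below it were 3 and 3 catenins and junction anchors, 4 and 4 polarity partners, and 4 and 3 Fat, Dchs and Hippo genes. The WAVE list had 3 above and 2 below, and the protease list 1 above and 2 below.

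**Figure D4:**
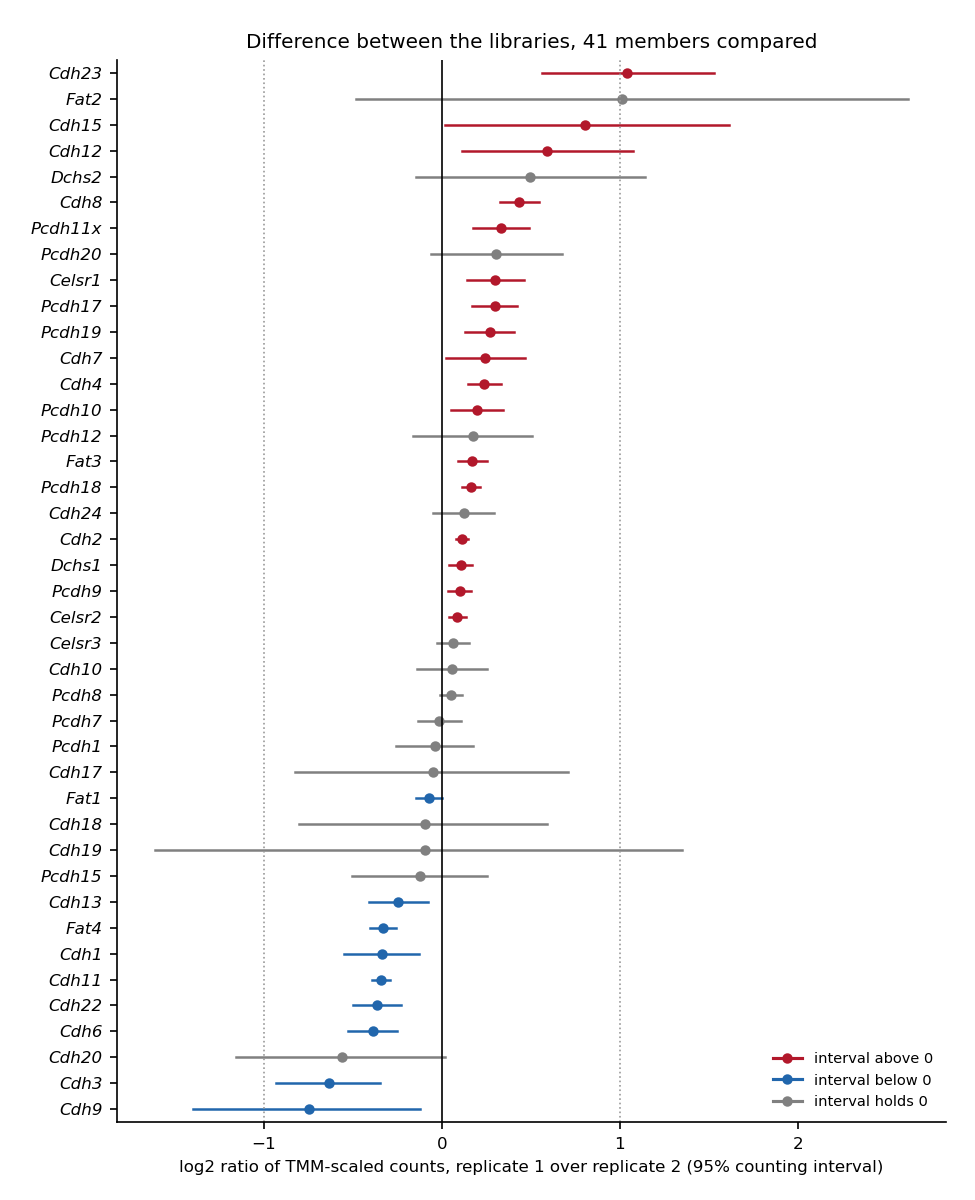
Log2 ratio of TMM-scaled counts, replicate 1 over replicate 2, with the exact 95% counting interval for each of the 41 genes compared; dotted lines mark 2-fold. Red genes have an interval above equality, blue genes below it and grey genes hold it. Cdh23 is the only coloured gene past 2-fold, and Cdh8 and Cdh11 stand out as well-counted genes on opposite sides.

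The classes also differed in gene structure, which no RNA level entered. The 12 type II cadherins each had 11 coding exons in their longest coding transcript, the largest of which held 20.5% to 21.9% of the coding length, and 4 of the 5 type I cadherins had 16. In the delta protocadherins a single exon held most of the coding sequence, from 62.2% in Pcdh11x to 84.3% in Pcdh7, and in Pcdh20 it held 95.4% of 2 coding exons. Pcdh15 departed from the other protocadherins with 34 coding exons and 24.7%. Gene spans ran from 4.54 kb for Pcdh8 to 1550 kb for Pcdh15, with a median of 123 kb.

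**Figure D5:**
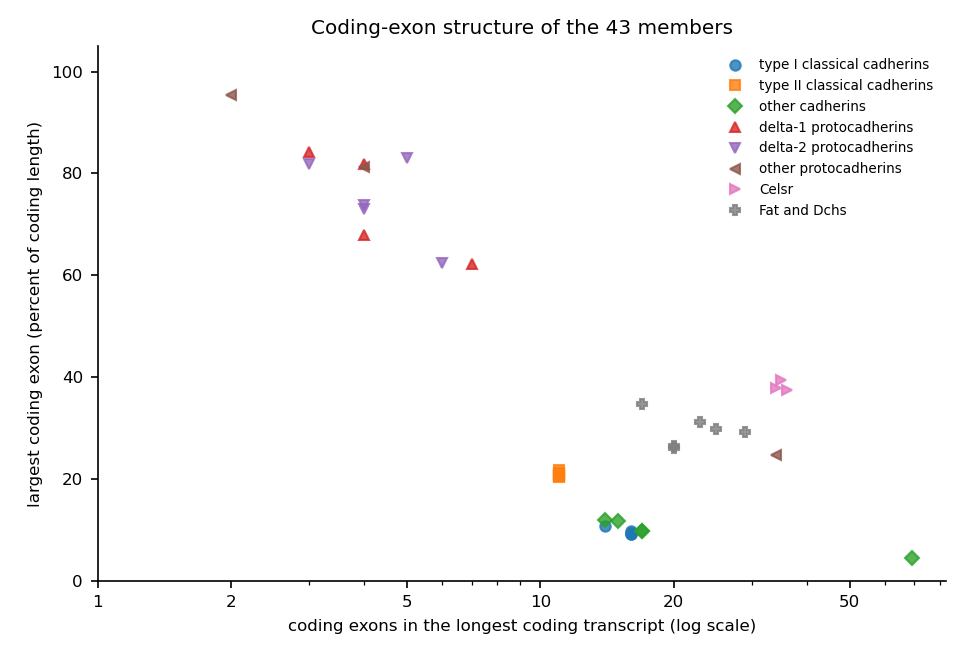
Number of coding exons in the longest coding transcript (log axis) against the share of coding length held by the largest coding exon, in percent, for the 43 genes by class. Protocadherins other than Pcdh15 lie at the upper left, type II cadherins at 11 exons, and Cdh23 at the far right with 69 exons and 4.56%.

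Some members share exon bases with a gene on the opposite strand, and the sources used here do not say whether reads were assigned by strand. The longest such overlap was at Pcdh7, which shares 2235 bases with 4932441J04Rik (127 counts in replicate 1 and 111 in replicate 2, against 955 and 1240 for Pcdh7). Fat4 shares 1209 bases with C230034O21Rik (115 and 144 counts, against 2394 and 3870). Reads from the overlaps cannot be told apart without strand.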

How the data were processed

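The submitters deposited gene and transcript tables for each of the 2 libraries against GENCODE M21 and M4 on assembly mm10, per the file headers and manifest. The expected counts are the deposited estimated reads per gene or transcript; they are not scaled. The deposited TPM values are corrected for effective length and for depth over all rows, spike-ins included. The isoform percent (a transcript's part of its gene's TPM) and the bounds of a credibility range, whose level is not stated, are also the authors' deposited values. The aligner, the quantifier, their versions and the strand setting are not given in the sources used here.

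M21 tables were used throughout, with M4 as an alternative. Counts were rounded and scaled by TMM (edgeR 4.0.16 in R 4.3.3) over annotated genes; DESeq2 1.42.0 size factors and spike-in totals were alternatives. Ratios of replicate 1 over replicate 2 carry exact conditional binomial (Clopper-Pearson) 95% intervals from scipy 1.17.1, which cover counting error only. The ratio step was tested on simulated Poisson counts, which hold counting error only, so that test says nothing of the spread between pools. Genes reaching 10 counts in either library were compared; detection meant at least 1 TPM in both. Every member was accounted for by class, those detected with both values, and of each partner list the highest, the lowest and any called gene. Coding lengths leave out the stop codon, as the annotation does. Members, lists and limits were chosen with earlier results of these data known. The result of 1 marker list is not reported here.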

Additional observations from a re-analysis of the deposited data

How the results depend on the processing

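With 1 library a pool, every ratio describes these libraries and not a condition. The count of 31 detected genes stayed within 1.5 times under each alternative run: 36 at 0.5 TPM, 21 at 5 TPM, 31 with M4 tables, 32 and 32 without either replicate, and, chosen after seeing the data, 29 on protein-coding and 28 on near-complete coding transcripts. The summed level of 675 TPM ran from 671.13 to 679.34 TPM without either replicate, and moved to 734 TPM with M4 tables, 591 TPM on protein-coding transcripts and 531 TPM on near-complete ones. The 1 gene called between the libraries became 5 at a 1.5-fold limit (Cdh3, Cdh9, Cdh12, Cdh15 and Cdh23) and stayed 1 under the other alternatives, though with spike-in scaling it was Cdh9 in place of Cdh23. The median log2 ratio moved to -0.17 with spike-in scaling, a shift shared by all genes, whose median was -0.28. A change of scaling adds the same constant to every log2 ratio. The distance of 0.11 between the median of the members and that of all genes was therefore fixed over the 3 scalings and is no check on them. The leading transcript was the same in both libraries for 29 genes in M21. Of single genes, 16 of 43 levels moved by more than their SD with M4 tables and 17 on protein-coding transcripts. The M4 moves include the shift shared by detected protein-coding genes, whose median log2 ratio of M21 over M4 was -0.07. Cdh2 counted as moved, at a mean of 183 TPM in M4, though its counts were the same in both. With DESeq2 size factors and with M4 tables all 41 ratios stayed inside their intervals, and with spike-in scaling 27 left them. No paired analysis was possible because the series has 1 group.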

Other observations

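Some members lie near each other in the genome. On chromosome 15, Cdh6, Cdh9, Cdh10, Cdh12 and Cdh18 lie within 10.4 Mb (chr15:13028701-23474418); they summed to 14.3 TPM in replicate 1 and 16.6 TPM in replicate 2, and 2 of the 5, Cdh6 and Cdh10, were detected. On chromosome 14, Pcdh8, Pcdh17, Pcdh20 and Pcdh9 lie within 14.1 Mb (chr14:79766775-93890679), and all 4 were detected, but from 1.39 and 1.18 TPM for Pcdh20 to 61.0 and 56.2 TPM for Pcdh9. On chromosome 8, the epithelial cadherins Cdh3 and Cdh1 are 46053 bases apart and both had lower counts, relative to depth, in replicate 1, with log2 ratios of -0.64 and -0.34. Cdh8 and Cdh11, which differed between the pools in opposite directions (log2 ratios of 0.44 and -0.34), lie in the same 7.65 Mb of that chromosome.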
